A study of Mus musculus with 10 samples.

Results

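The interstitial matrix and fibrosis genes are 37 genes for the proteins that fill the space between the muscle fibres of the heart, for the enzymes that fold, cross-link and cut them, and for the growth factors that control their synthesis. They were taken by symbol from the GENCODE vM21 annotation, and all 37 were found among the 55335 genes of the deposited table. Heart tissue of wild-type (WT) male mice was profiled by RNA-seq. In one group of 5 samples the dams had received anti-Müllerian hormone (AMH) while pregnant, which the labels abbreviate as PAMH, and in the other group of 5 the dams had received phosphate-buffered saline, so both groups had treated mothers and differ in the agent. Prenatal AMH exposure is used as a model of polycystic ovary syndrome, while the sources used here do not state strain, age, dose or litter. No label ties a sample to an animal or dam, so the spread that enters each p-value is that between samples and may partly be technical.

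Cardiac interstitial matrix is made mainly by resident fibroblasts. Collagen I and III chains fold into triple helices in the endoplasmic reticulum, are secreted, and assemble into fibrils that lysyl oxidases cross-link, while fibronectin, microfibrils, elastin and small proteoglycans bind and space the fibrils. Metalloproteinases cut these proteins and the tissue inhibitors of metalloproteinases (TIMPs) block the cutting. Transforming growth factor beta (TGF-β), which is stored in the matrix in a latent form, drives fibroblasts to make more of it, and a lasting excess of such matrix is called fibrosis.

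Of the 37 genes, 34 had a mean of at least 1 FPKM (fragments per kilobase of transcript, scaled to the library, the unit of the deposited values) and were tested, and 1 of them differed between the groups. Timp4, the TIMP gene known for its expression in heart, was lower in PAMH hearts. None was higher, and 33 did not pass (limma on log2(FPKM + 1), adjusted p under 0.05 over 9439 genes). Over all tested genes 6.19% were called, 4.95% higher and 1.24% lower. The 1 call among 34 genes is no more than the 6.19% of both directions gives. It was in the lower direction, and 1 gene is too few to compare with the 1.24%. At an unadjusted p under 0.05 the members numbered 7, against 24.0% of all tested genes. Of the 7, 3 had higher values in PAMH hearts (19.6% of all tested genes) and 4 had lower values (4.34%). Of the 34 changes, 28 were smaller than 0.2 on the log2 scale, and for 28 the 95% interval lay inside -0.5 to 0.5. The median log2 fold change was -0.01 over the members and 0.07 over all tested genes. Signs were split, with 16 positive and 18 negative, and that split moved with the scaling of the samples, from 16 negative after rescaling every library to an equal sum to 26 negative with median ratio scaling. It also moved with 1 sample left out, from 14 negative without PAMH replicate 3 to 23 negative without control replicate 5.

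**Figure D1:**
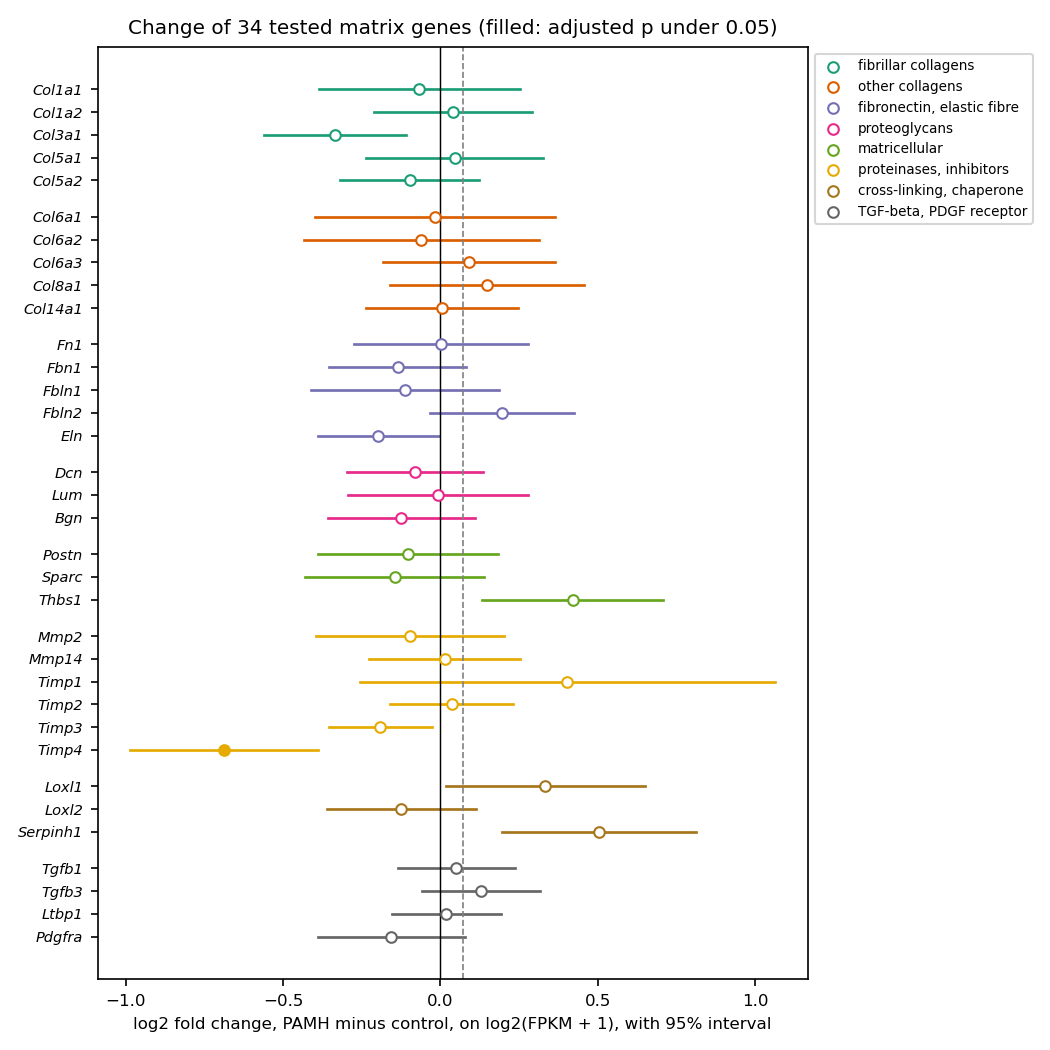
Log2 fold change (PAMH minus control, on log2(FPKM + 1)) of the 34 tested matrix genes with 95% intervals, grouped and coloured by role. The filled point is Timp4 at -0.69, the dashed line marks the median of all tested genes (0.07), and most intervals include 0.

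The upstream sequences of the genes on which the results turn are shown because they belong to the called gene, to Timp1, whose call depends on single samples, and to the collagen chaperone that came closest to a rise. Each run holds the 250 bases before the start site in RefSeq's GRCm38.p6 table, 5′ to 3′ on the gene's strand. Capitals mark matches to CAGAC, the Smad-binding CAGA box of TGF-β target promoters, read on either strand. Timp4 lies on the minus strand (chr6:115252206-115252455), Timp1 on the plus strand (chrX:20869916-20870165) and Serpinh1 on the minus strand (chr7:99353240-99353489).
Timp4: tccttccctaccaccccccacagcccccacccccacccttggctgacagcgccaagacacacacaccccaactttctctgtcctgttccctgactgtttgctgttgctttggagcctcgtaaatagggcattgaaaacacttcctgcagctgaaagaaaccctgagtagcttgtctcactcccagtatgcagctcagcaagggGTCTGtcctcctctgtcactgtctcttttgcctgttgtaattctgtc
Timp1: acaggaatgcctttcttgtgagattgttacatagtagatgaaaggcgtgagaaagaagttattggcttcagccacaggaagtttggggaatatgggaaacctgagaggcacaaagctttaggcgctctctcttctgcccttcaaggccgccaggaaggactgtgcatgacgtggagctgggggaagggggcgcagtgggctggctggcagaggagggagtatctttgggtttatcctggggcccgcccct
Serpinh1: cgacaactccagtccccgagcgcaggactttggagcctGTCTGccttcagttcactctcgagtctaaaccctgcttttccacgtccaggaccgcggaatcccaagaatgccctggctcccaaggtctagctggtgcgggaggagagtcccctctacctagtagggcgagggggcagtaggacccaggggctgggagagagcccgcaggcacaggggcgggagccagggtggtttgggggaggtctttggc
A match to CAGAC stood at -47 to -43 in Timp4 and at -212 to -208 in Serpinh1, both on the opposite strand, and none was in the Timp1 window. Over the 24 members with an entry, which have 29 annotated start sites, 17 windows (58.6%) held CAGAC, against 42.2% of 32851 windows of the same length. TATAAA, the TATA box, was in 5 of the 29 windows (17.2%, against 12.4%), in Col3a1, Postn, Tgfb2 and 2 windows of Tnc, and in none of the 3 printed. TGANTCA, the AP-1 site, was in 1 of the 29 (Col6a1; 6.75% of all windows), and GAANNTTC, a heat shock element core, was in 0 (6.69% of all windows). Both strands were searched, no motif overlapped another in the printed runs, and a match describes letters and not a bound site.

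Sample measures that touch these genes differed within the PAMH group and in part between the groups. Sums of the deposited FPKM ran from 691934 to 717453 in control and from 654350 to 713055 in PAMH samples. No read depth is known for any sample. Genes of the mitochondrial genome held 55.3% to 56.8% of the sum in control. They held 53.6%, 54.5%, 56.6%, 51.5% and 54.6% in PAMH replicates 1 to 5. With the mitochondrial genome left out, the members' median log2 fold change was -0.03. PAMH replicate 4 had the fewest genes above 0 (16113, against 18037 to 21097 in the others), the highest hemoglobin sum (859 FPKM, against 97.1 to 436 FPKM) and the lowest rank correlation with the median sample (0.946, against at least 0.973). Of the 34 tested members it held the highest value of all 10 samples for 12 and the lowest for 9, and over all tested genes it held the highest for 30.8% and the lowest for 20.4%. PAMH replicate 3 held the lowest value for 17 of the 34 members, against 13.0% of all tested genes. It lay below all 5 controls for 23 members (21.9% of all tested genes) and above all of them for 3 (24.3%). The other PAMH samples were below all controls for between 4 (replicate 1) and 12 (replicate 4) members. Over all tested genes the share below all controls was 9.58% in PAMH replicate 1 and 25.7% in PAMH replicate 4. The median difference of the members from the control mean was -0.25 on the log2 scale in PAMH replicate 3, and between -0.06 and 0.12 in the other PAMH samples. Summed over the 37 genes the FPKM came to 318 in that sample, to 355 to 387 in the other PAMH samples and to 348 to 384 in controls. The part of these samples in the results was tested by leaving each out, and such values are given where they change a result.

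**Figure D2:**
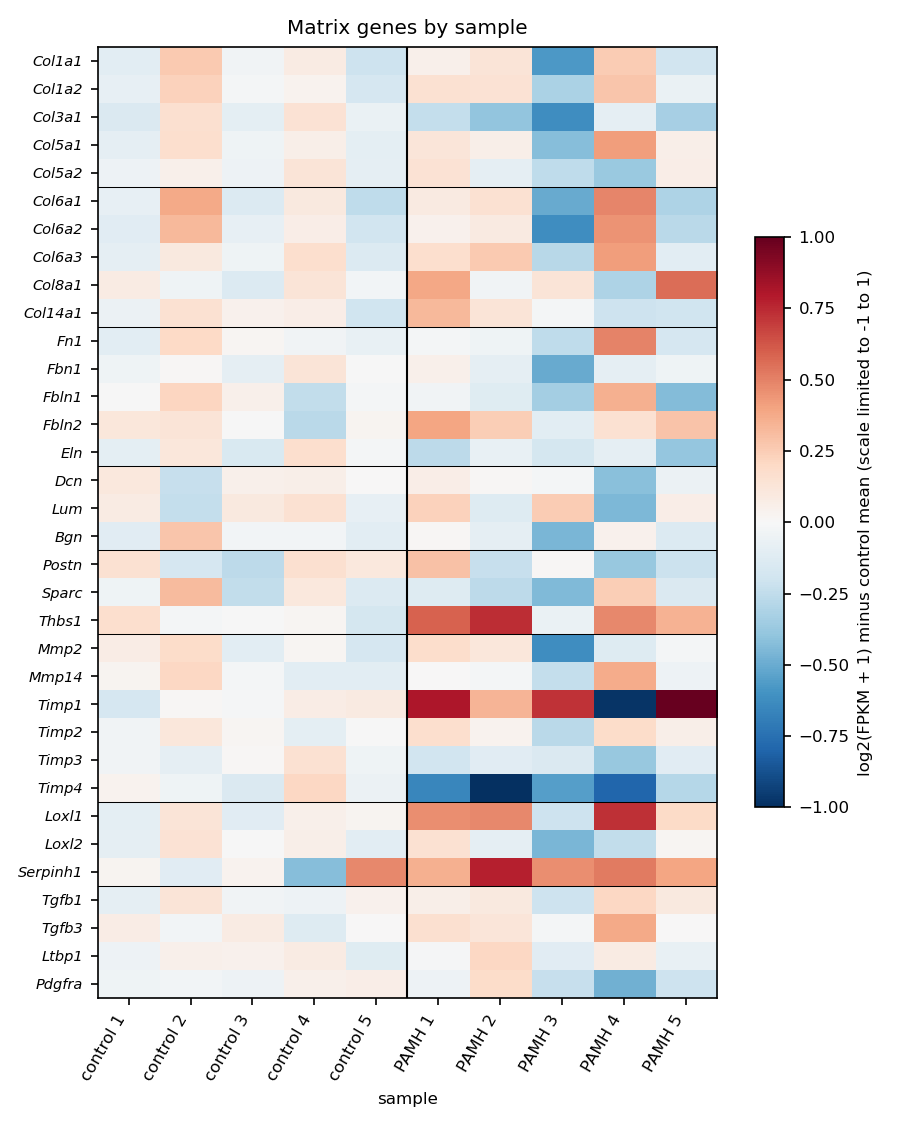
Difference of each sample from the control mean on log2(FPKM + 1) for the 34 tested genes (rows, divided by role) in the 10 samples (columns); the colour scale stops at -1 and 1. The PAMH replicate 3 column is mostly blue, PAMH replicate 4 mixes red and blue, and the Timp4 row is blue in all 5 PAMH samples.

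Levels spanned a wide range. Averaged over the 10 samples, Sparc was the highest at 60.9 FPKM and the wound glycoprotein gene Tnc the lowest at 0.0644 FPKM, and 9 genes exceeded 10 FPKM. These were Sparc, Serpinh1, Dcn, Timp2, Timp3, Bgn, Lum, Col3a1 and Col6a1. Neighbours in this order overlapped in their values, for example Timp2 (16.3 to 22.6 FPKM) and Timp3 (16.02 to 23.6 FPKM), and 15 genes averaged under 3 FPKM. Together the 37 genes held 0.0447% to 0.0582% of each FPKM sum.

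**Figure D3:**
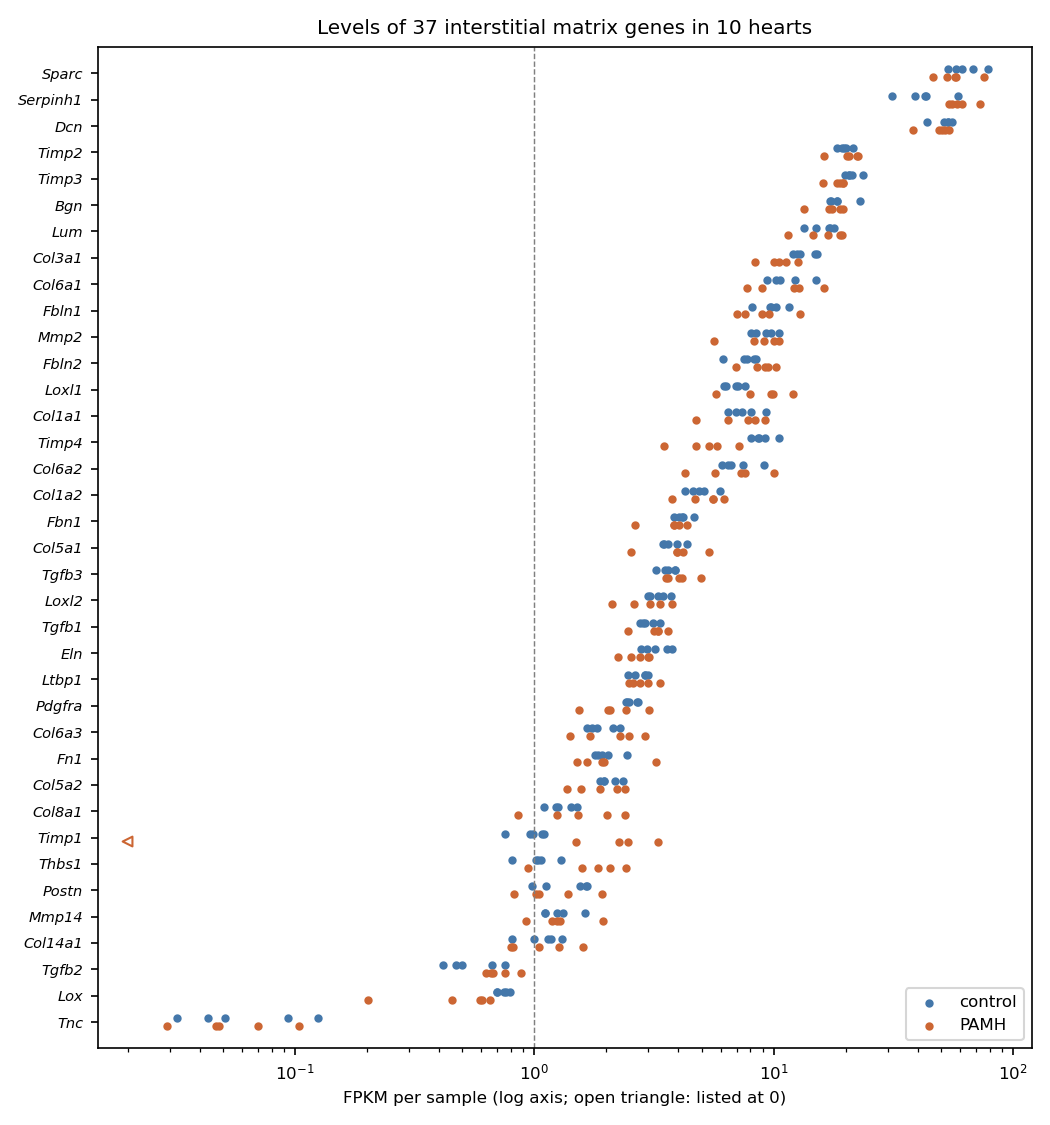
FPKM of the 37 genes in each of the 10 samples on a log axis, genes ordered by their mean, with the filter of 1 FPKM as a dashed line. Tnc, Lox and Tgfb2 averaged under 1 FPKM, and Timp1 was listed at 0 in PAMH replicate 4.

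The TIMPs and metalloproteinases held the 1 called gene. TIMP4 inhibits matrix metalloproteinases and is made in fewer tissues than its relatives, heart among them. Timp4 (chromosome 6, 115241892 to 115252205, minus strand, GRCm38) had 9.23, 8.70, 8.03, 10.5 and 8.59 FPKM in control replicates 1 to 5 and 5.36, 3.48, 5.81, 4.75 and 7.19 FPKM in PAMH replicates 1 to 5. Every PAMH sample was below every control, which held for 1.71% of all tested genes in that direction. Timp4 fell from 9.02 ± 0.952 to 5.32 ± 1.37 FPKM (n = 5 each, ± SD), which on the log2 scale is -0.69 (SE 0.14, limma adjusted p = 0.0144). The call held in 22 of 23 other settings and ended with no filter on low values (adjusted p = 0.0610), where 26758 genes were tested. Timp4 shares 90 exonic bases with Syn2 on the opposite strand, which averaged 0.328 FPKM. In bulk tissue, fewer cells of a type and less RNA per cell cannot be told apart.

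Timp1, the inducible TIMP of injured tissue, differed by sample. It had 0.758, 0.986, 0.956, 1.08 and 1.09 FPKM in control replicates 1 to 5 and 2.45, 1.49, 2.25, 0 and 3.29 FPKM in PAMH replicates 1 to 5. The 4 PAMH samples in which it was detected were above every control, and PAMH replicate 4, the sample with the fewest genes above 0, was listed at 0. With all samples Timp1 did not pass (log2 fold change 0.40, SE 0.30, limma adjusted p = 0.448). Without PAMH replicate 4 it rose (log2 fold change 0.75, adjusted p = 0.00854), without PAMH replicates 4 and 5 it rose by 0.62 (adjusted p = 0.0167), and without PAMH replicate 5 alone the value was 0.22 (adjusted p = 0.700). With sample weights it also passed (log2 fold change 0.64, adjusted p = 0.0395). The control mean of Timp1, 0.974 FPKM, lay below the filter, so the gene was tested through its PAMH values, and with no filter the adjusted p with all samples was 0.704 (limma).

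Timp3, whose protein binds to the matrix itself, had 20.7, 19.8, 21.3, 23.6 and 20.6 FPKM in control and 18.4, 19.4, 19.0, 16.02 and 19.4 FPKM in PAMH replicates 1 to 5. The groups did not overlap, but the difference was small and did not pass the test (log2 fold change -0.19, SE 0.07, limma adjusted p = 0.144). Timp3 and Timp4 were the 2 tested members whose groups did not overlap, against 8.44% of all tested genes in either direction, and none was higher without overlap (6.74% of all tested genes). Timp2, which also helps to activate pro-MMP2, had 18.4 to 21.5 FPKM in control and 16.3 to 22.6 FPKM in PAMH hearts (log2 fold change 0.04, 95% interval -0.16 to 0.23). Mmp2, the gelatinase of fibroblasts, averaged 9.22 ± 1.003 and 8.70 ± 1.92 FPKM (SD, n = 5 each), and Mmp14, the membrane-bound activator of MMP2, averaged 1.28 ± 0.215 and 1.31 ± 0.377 FPKM. Both had 95% intervals inside -0.5 to 0.5 and log2 fold changes of -0.10 and 0.01.

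**Figure D4:**
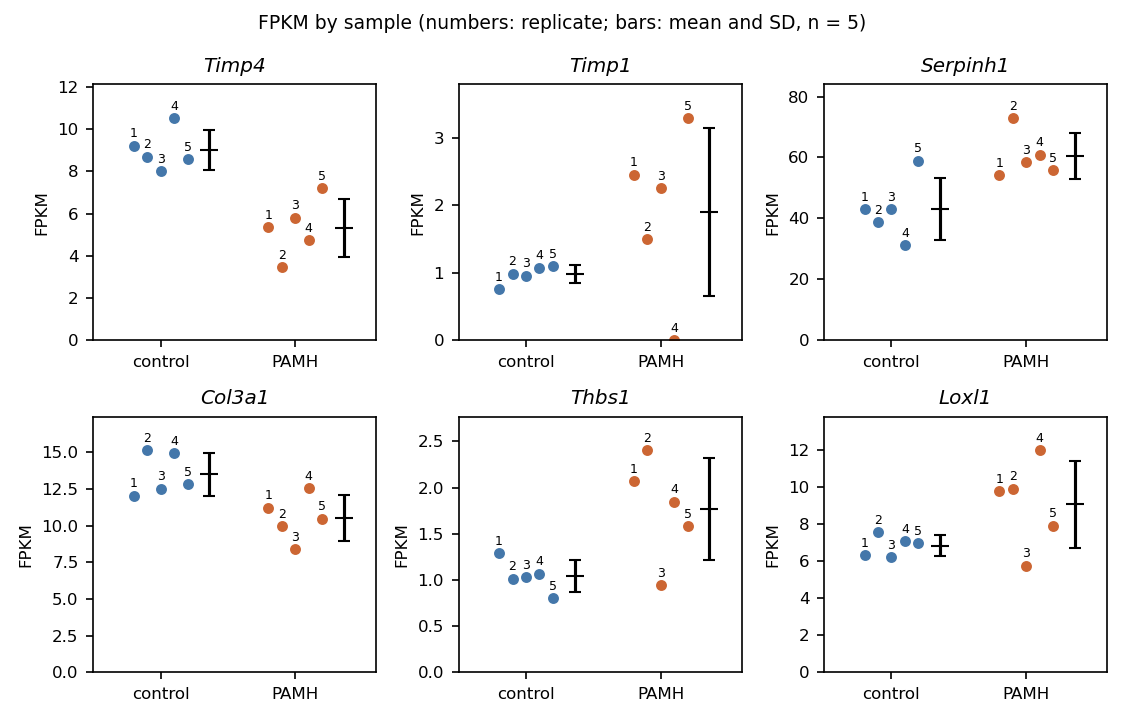
FPKM by sample, with the replicate number beside each point and the mean and SD of each group (n = 5), for the 6 members that passed the test in at least 1 setting. Timp4 is lower in all 5 PAMH samples, Timp1 is listed at 0 in PAMH replicate 4, and PAMH replicate 3 is lowest of its group for Col3a1, Thbs1 and Loxl1.

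Among the genes of collagen folding and cross-linking, Serpinh1 came close to the threshold. It encodes HSP47, the endoplasmic reticulum chaperone of procollagen (chromosome 7, 99345376 to 99353239, minus strand). Control replicates 1 to 5 had 43.0, 38.8, 43.1, 31.1 and 59.0 FPKM and PAMH replicates 1 to 5 had 54.1, 73.0, 58.5, 60.9 and 55.8 FPKM. All PAMH samples exceeded 4 of the controls, and control replicate 5 lay among them. The means were 43.0 ± 10.2 and 60.5 ± 7.48 FPKM (n = 5 each, ± SD; difference 0.50 on the log2 scale, SE 0.14, limma adjusted p = 0.0551). Serpinh1 passed in 4 of 23 other settings, among them without control replicate 5 (log2 fold change 0.62, adjusted p = 0.0189) and with each sample rescaled to the same sum (adjusted p = 0.0371), while quantile normalization gave 0.36 (adjusted p = 0.192).

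Loxl1, a lysyl oxidase that acts on elastic fibres, had 6.33, 7.56, 6.22, 7.11 and 6.98 FPKM in control and 9.79, 9.93, 5.77, 12.02 and 7.93 FPKM in PAMH replicates 1 to 5. PAMH replicate 3 was the lowest of the 10 samples and the other 4 PAMH samples were the highest. The difference did not pass with all samples (log2 fold change 0.33, SE 0.15, limma adjusted p = 0.188), and without PAMH replicate 3 Loxl1 rose (log2 fold change 0.47, adjusted p = 0.0173). Loxl2, which cross-links fibrillar and basement membrane collagen, averaged 3.30 ± 0.313 and 2.98 ± 0.636 FPKM (log2 fold change -0.12). Lox, the main lysyl oxidase of collagen fibrils, was below the filter, with 0.697, 0.746, 0.758, 0.696 and 0.792 FPKM in control and 0.654, 0.451, 0.606, 0.202 and 0.593 FPKM in PAMH replicates 1 to 5. Its groups did not overlap either, and in the fit with no filter it did not pass (log2 fold change -0.22, SE 0.09, limma adjusted p = 0.334).

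None of the 5 fibrillar collagen chains passed the test. Col3a1, the single chain of collagen III (chromosome 1, 45311538 to 45349706, plus strand), had 12.04, 15.2, 12.5, 14.9 and 12.8 FPKM in control and 11.2, 9.99, 8.39, 12.6 and 10.5 FPKM in PAMH replicates 1 to 5. Only PAMH replicate 4 reached the control range. The means were 13.5 ± 1.44 and 10.5 ± 1.55 FPKM (n = 5 each, ± SD; difference -0.33 on the log2 scale, SE 0.10, limma adjusted p = 0.0747). Col3a1 passed in 5 of 23 other settings, among them without PAMH replicate 4 (log2 fold change -0.40, adjusted p = 0.0308) and with quantile normalization (log2 fold change -0.46, adjusted p = 0.00925), and rescaling to the same sum gave -0.29 (adjusted p = 0.140). A microRNA gene, Gm47302, overlaps 141 of the 9816 exonic bases of Col3a1 (1.44%) on the same strand and averaged 21.6 FPKM. The part of this overlap in the value of Col3a1 was not tested.

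The estimated changes of the collagen I chains were small in the deposited FPKM, and their 95% intervals held changes in either direction. Col1a1 had 6.94, 9.25, 7.34, 8.03 and 6.42 FPKM in control and 7.83, 8.36, 4.73, 9.21 and 6.46 FPKM in PAMH replicates 1 to 5, with PAMH replicate 3 the lowest of all 10. Its log2 fold change was -0.07 (95% interval -0.38 to 0.25), and that of Col1a2, the partner chain, was 0.04 (-0.21 to 0.29). Col5a1 and Col5a2, chains of the collagen V that sets fibril width, had changes of 0.05 and -0.10. Col5a2 lies beside Col3a1 on chromosome 1 (45374321 to 45503282, minus strand) and averaged 2.06 ± 0.193 and 1.88 ± 0.425 FPKM. Summed over the 5 chains the level was 31.9 ± 3.57 FPKM in control and 28.9 ± 5.10 FPKM in PAMH hearts, and 21.0 FPKM in PAMH replicate 3.

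Ratios between members, which a linear scaling of a sample does not change, were compared for 5 pairs. The pairs were chosen with earlier results of these data known, so their p-values may be too small. The ratio of Col1a1 to Col3a1 was 0.576, 0.610, 0.586, 0.538 and 0.50001 in control and 0.697, 0.837, 0.564, 0.732 and 0.616 in PAMH replicates 1 to 5. It was above every control in 4 of 5 PAMH samples, PAMH replicate 3 being the exception, and averaged 0.562 ± 0.0435 and 0.689 ± 0.106 (SD, n = 5 each; difference 0.28 on the log2 scale, exact 2-sided permutation p = 0.0476, adjusted p = 0.0794 over 5 ratios). Without PAMH replicate 3 the difference was 0.35 (exact permutation, adjusted p = 0.0397). The ratio of Col1a1 to Col1a2 averaged 1.53 ± 0.0337 in control and 1.40 ± 0.0984 in PAMH hearts (n = 5 each, exact permutation p = 0.0238, adjusted p = 0.0794). It was lower than in all controls in 4 of 5 PAMH samples and passed without PAMH replicate 2 and with quantile normalization (exact permutation, adjusted p = 0.0397 in each). Col6a3 to Col6a1 averaged 0.170 ± 0.0179 and 0.187 ± 0.00700 (n = 5 each, exact permutation p = 0.0476, adjusted p = 0.0794). Mmp2 to Timp2 had an adjusted p of 0.337 and Postn to Col1a1 one of 0.738 by the same exact permutation test. The smallest p that 5 against 5 samples can give is 0.00794.

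**Figure D5:**
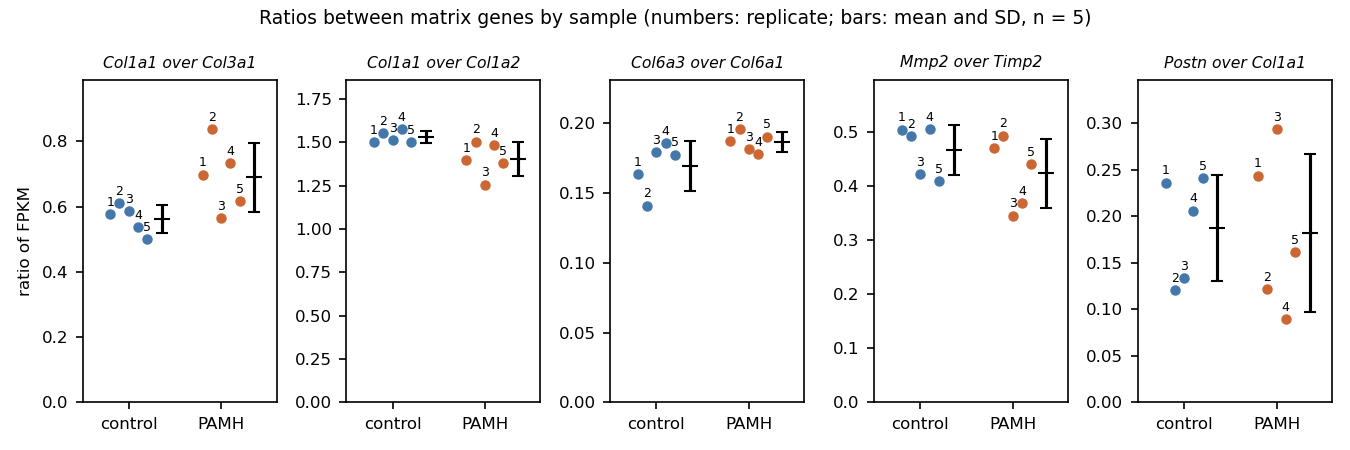
Ratio of the FPKM of 2 members in each sample for 5 pairs, with replicate numbers and the mean and SD of each group (n = 5). Col1a1 over Col3a1 is higher in 4 of the 5 PAMH samples than in any control, and Postn over Col1a1 overlaps throughout.

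The other collagens did not pass either. Collagen VI forms beaded filaments around cells, and the genes of its first pair of chains, Col6a1 and Col6a2, are neighbours on chromosome 10. Col6a1 had 10.7, 15.05, 10.2, 12.2 and 9.34 FPKM in control and 12.1, 12.7, 7.73, 16.3 and 8.95 FPKM in PAMH replicates 1 to 5. The PAMH group therefore held both the highest and the lowest sample, replicates 4 and 3. Col6a2 showed the same extremes, with 10.01 FPKM in PAMH replicate 4 and 4.26 FPKM in PAMH replicate 3, around means of 7.14 ± 1.20 and 6.98 ± 2.16 FPKM. Col6a3 averaged 1.93 ± 0.262 and 2.16 ± 0.603 FPKM. Col8a1, a network collagen of vessels and injured heart, had 1.10 to 1.51 FPKM in control and 0.859 to 2.39 FPKM in PAMH hearts (log2 fold change 0.15, limma adjusted p = 0.559), and Col14a1, which sits on fibril surfaces, averaged 1.09 ± 0.189 and 1.11 ± 0.336 FPKM.

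Fibronectin, microfibril and elastic fibre genes had no member past the threshold. Fbln1, an elastic fibre and fibronectin-binding glycoprotein and the most abundant of them, had 9.79, 11.6, 10.2, 8.12 and 9.63 FPKM in control and 9.52, 8.93, 7.55, 12.8 and 7.01 FPKM in PAMH replicates 1 to 5, so the groups overlapped. Fbln2 had 6.13 to 8.40 FPKM in control and 6.97 to 10.3 FPKM in PAMH hearts (log2 fold change 0.19, limma adjusted p = 0.283). Eln, which encodes the elastin precursor, averaged 3.26 ± 0.405 and 2.71 ± 0.327 FPKM (log2 fold change -0.20, unadjusted p = 0.0451, limma adjusted p = 0.197). Fn1, the fibronectin gene, had 1.79 to 2.44 FPKM in control and 1.51 to 3.23 FPKM in PAMH hearts, and the microfibril gene Fbn1 averaged 4.17 ± 0.299 and 3.73 ± 0.641 FPKM. The fit gave these 2 genes log2 fold changes of 0.00 and -0.14.

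Small leucine-rich proteoglycans, which bind collagen fibrils and limit their width, were among the most abundant members. Dcn (decorin) had 55.4, 43.7, 53.3, 53.5 and 51.4 FPKM in control and 53.9, 51.7, 50.7, 38.1 and 49.2 FPKM in PAMH replicates 1 to 5. PAMH replicate 4 was the lowest sample for Dcn and, at 11.5 FPKM, for Lum (lumican), its neighbour on chromosome 10. The log2 fold changes were -0.08 for Dcn, -0.01 for Lum and -0.13 for Bgn (biglycan), with limma adjusted p of 0.655, 0.978 and 0.511.

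Matricellular proteins act on cells more than on tissue strength. Sparc, which binds collagen and aids its assembly, had 61.4, 78.9, 53.3, 68.2 and 57.6 FPKM in control and 57.8, 52.8, 46.3, 75.3 and 57.1 FPKM in PAMH replicates 1 to 5, and the groups overlapped. Thbs1, which encodes thrombospondin 1, an activator of latent TGF-β, had 1.29, 1.01, 1.03, 1.07 and 0.805 FPKM in control and 2.07, 2.41, 0.945, 1.85 and 1.59 FPKM in PAMH replicates 1 to 5. All PAMH samples but replicate 3 were above every control. It did not pass with all samples (log2 fold change 0.42, SE 0.13, limma adjusted p = 0.0796) and rose without PAMH replicate 3 (log2 fold change 0.54, adjusted p = 0.00800). At this low level the pseudocount mattered, since 0.1 in place of 1 gave a log2 fold change of 0.67 (adjusted p = 0.0860). Postn, which encodes periostin, a protein of activated fibroblasts, was low at 1.39 ± 0.316 and 1.24 ± 0.427 FPKM (log2 fold change -0.10). Tnc, which appears in wounds, did not exceed 0.125 FPKM in any sample and was not tested.

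The TGF-β ligand genes and Pdgfra did not pass. Tgfb3 had 3.87, 3.52, 3.88, 3.21 and 3.63 FPKM in control and 4.15, 4.02, 3.55, 4.99 and 3.63 FPKM in PAMH replicates 1 to 5, with overlapping groups (log2 fold change 0.13, limma adjusted p = 0.389). Tgfb1 averaged 3.003 ± 0.242 and 3.16 ± 0.429 FPKM (95% interval of the log2 fold change -0.14 to 0.24). Tgfb2 was below the filter at 0.415 to 0.754 FPKM in control and 0.626 to 0.883 FPKM in PAMH hearts, and with no filter it did not pass (limma adjusted p = 0.524). Ltbp1, which anchors latent TGF-β in the matrix, averaged 2.78 ± 0.217 and 2.84 ± 0.351 FPKM. Pdgfra, the platelet-derived growth factor receptor of cardiac fibroblasts, had 2.42 to 2.72 FPKM in control and 1.54 to 3.02 FPKM in PAMH hearts (log2 fold change -0.16, limma adjusted p = 0.401).

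Related genes outside the 37 were examined in 10 lists of 162 genes, of which 95 were tested and 5 were higher in PAMH hearts, a share near the 4.95% of all tested genes called higher. Among 15 tested proteases and inhibitors Mmp3, the stromelysin gene, rose from 0.898 ± 0.119 to 1.66 ± 0.346 FPKM (SD, n = 5 each), with no overlap between the groups (log2 fold change 0.48, limma adjusted p = 0.0151; 20 of 22 other settings, with an adjusted p of up to 0.0634). Its control mean was below 1 FPKM, so Mmp3 passed the filter through its PAMH values. Of 4 tested genes of platelet-derived growth factor signalling, the ligand gene Pdgfa rose from 2.19 ± 0.280 to 3.58 ± 0.411 FPKM (log2 fold change 0.52, limma adjusted p = 0.00599), and 3 did not pass. Pdgfa shares 813 exonic bases with an antisense gene, 6330403L08Rik, which averaged 2.98 FPKM, so its value is uncertain where strand is not given.

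Of 20 tested genes of collagen hydroxylation, folding, export and trimming, 2 were higher and 18 did not pass. Tmem38b, an endoplasmic reticulum cation channel needed for collagen modification, rose from 5.42 ± 0.414 to 7.80 ± 1.13 FPKM (log2 fold change 0.45, limma adjusted p = 0.0158), with every PAMH sample above every control. P4hb, a subunit of prolyl 4-hydroxylase and a general disulfide isomerase, rose from 58.0 ± 4.56 to 70.7 ± 4.90 FPKM (log2 fold change 0.28, adjusted p = 0.0442), but passed in only 10 of 23 other settings. Of 9 other elastic fibre genes Efemp1 rose (log2 fold change 0.41, adjusted p = 0.0357; 12 of 22 other settings), and 8 did not pass.

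No gene passed in limma in the remaining lists of this pathway. These held 17 tested genes of TGF-β activation, receptors and Smads (3 at an unadjusted p under 0.05), 13 other matricellular genes (4), 10 matrix receptors (1), 4 other proteoglycans (0), 2 other cross-linking enzymes (1) and 1 other collagen (0). Itgb5, an integrin chain that can activate TGF-β, averaged 18.2 ± 1.39 and 19.3 ± 1.82 FPKM, and Itgb1, the shared chain of collagen and fibronectin receptors, 50.7 ± 7.23 and 50.5 ± 10.9 FPKM. The matricellular Sparcl1 had 57.7 ± 4.996 and 45.9 ± 5.25 FPKM with no overlap (limma adjusted p = 0.0516), and it passed in 7 of 23 other settings. Ogn, a proteoglycan, averaged 17.3 ± 3.16 and 19.0 ± 3.02 FPKM, the transglutaminase Tgm2 39.5 ± 3.32 and 38.5 ± 2.11 FPKM, and Col5a3 2.44 ± 0.303 and 2.10 ± 0.308 FPKM.

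Markers of the cells that could carry these genes were set beside them. Cardiomyocyte markers summed to 10289 to 12880 FPKM in control and 9118 to 15125 FPKM in PAMH hearts, so the labelled tissue carries its defining genes. Of 10, Nkx2-5, a cardiac transcription factor, was higher (limma log2 fold change 0.63, adjusted p = 0.0181). None of 10 fibroblast markers passed in limma (2 at an unadjusted p under 0.05), and their sum was 97.6 to 107 FPKM in control and 94.3 to 102 FPKM in PAMH hearts, with PAMH replicate 3 the lowest at 94.3 FPKM. Dpt, which encodes dermatopontin and was the most abundant of them, averaged 33.1 ± 1.45 and 29.4 ± 3.95 FPKM. Of 5 tested myofibroblast markers 4 did not pass and 1 was higher, the contractile actin gene Acta2, with 32.1 ± 5.95 FPKM in control and 82.5 ± 20.7 FPKM in PAMH hearts (limma log2 fold change 1.31, adjusted p = 0.00223). The list's sum was 50.9 to 69.6 FPKM in control and 76.2 to 131 FPKM in PAMH hearts, and most of that difference was Acta2. Acta2 and Tagln are also genes of smooth muscle but were placed in the myofibroblast list only. Which cells carry the rise of Acta2 was not tested. Tagln averaged 6.97 ± 2.56 and 6.83 ± 1.57 FPKM, and Cthrc1, which was not tested, had 0.0289 to 0.133 FPKM in control and was listed at 0 in every PAMH sample. Of 6 tested smooth muscle and pericyte markers none passed in limma, Rgs5 being the most abundant at 52.5 ± 10.4 and 52.3 ± 10.8 FPKM (0 at an unadjusted p under 0.05; sums of 80.3 to 107 and 69.8 to 100.1 FPKM). Among 10 endothelial markers, which summed to 94.9 to 117 FPKM and 84.2 to 105 FPKM, the tight junction gene Cldn5 was lower (limma log2 fold change -0.88, adjusted p = 0.00200). Among 9 macrophage markers, with sums of 196 to 241 and 196 to 249 FPKM, the lysosomal gene Cd68 was higher (log2 fold change 0.46, limma adjusted p = 0.0187). Of 7 mesothelial markers 2 were tested, and both, Upk3b and Aldh1a2, were higher (log2 fold changes 1.20 and 0.62, limma adjusted p = 0.00190 and 0.00904), with list sums of 1.71 to 2.73 and 5.31 to 9.38 FPKM. Upk3b averaged 0.293 FPKM in control and 2.04 FPKM in PAMH hearts, so it passed the filter through its PAMH values. Blood markers had no call among 5 in limma (0 at an unadjusted p under 0.05) and summed to 112 to 437 and 97.3 to 863 FPKM. Schwann cell and adipocyte markers stayed under 1.21 FPKM in sum, and valve and skeletal muscle markers had 1 tested gene each with no call in limma (0 at an unadjusted p under 0.05 in either). Their sums were 5.55 to 10.4 and 570.1 to 784 FPKM in control and 4.12 to 6.98 and 548 to 711 FPKM in PAMH hearts, the latter almost wholly from Ckm, which heart also expresses. In the lists with a call, except the mesothelial one, more genes than the called ones had an unadjusted limma p under 0.05. Genes with such a p numbered 4 of 10 cardiomyocyte, 2 of 5 myofibroblast, 4 of 10 endothelial, 5 of 9 macrophage and 2 of 2 mesothelial markers. Over all tested genes 24.0% had such a p, and 4.95% were called higher and 1.24% lower. The part of these markers in the values of the matrix genes was not tested.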

How the data were processed

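RNA-seq of heart was analysed for 5 control and 5 PAMH samples, grouped by title. The authors deposited 1 table of FPKM for 55335 Ensembl genes. The submitters' processing notes name HISAT2 2.2.1 and HTSeq 0.13.5 beside the read tools Trimmomatic 0.38 and FastQC 0.11.9, and also DESeq2 1.18.1 under R 3.4.1, with build mm10 and no step assigned. The FPKM tool, the annotation and the strand setting were not given in the sources used here. Depth is unknown, so no counting interval is given.

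Symbols and coordinates (1-based, GRCm38) came from GENCODE vM21, which held 55154 of the IDs. FPKM were transformed as log2(FPKM + 1), which understates changes of low genes. Genes averaging 1 FPKM or more (9439) were fitted with limma 3.58.1 in R 4.3.3 (group term, trend, 2-sided, Benjamini-Hochberg, threshold 0.05). Ratios were compared by exact permutation (252 arrangements). The procedure was tested on simulated data. Alternatives were 2 filters, a pseudocount of 0.1, 3 scalings, sample weights, robust empirical Bayes, a replicate block, a pseudocount of 1 for the ratios, omission of samples or of the mitochondrial genome and, added after seeing the data, protein-coding genes only and removal of loess trends (span 0.5) on GC content and transcript length. Members, lists and ratios were chosen with earlier results of these data known. Members past the threshold in any setting, the most abundant of each role and, up to 12 in all, the largest changes were described in detail. Their values were given by sample or, for some, as the range or the mean and SD of each group. From each list the genes past the threshold were named or, where none passed, the most abundant. One result that this rule gives is not reported here. Other genes were named after their values were seen. Sequences came from RefSeq (GRCm38.p6). Figures used matplotlib 3.10.9.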

Additional observations from a re-analysis of the deposited data

Results flagged for a closer look

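The highest and lowest sample of each group of 5 were compared with the rest of their group for the 37 genes and 5 ratios, 84 groups in all, and 2 stood apart by Dixon's criterion (0.71 for 5 samples), where chance flags about 1 group in 20. Fn1, the fibronectin gene, was 3.23 FPKM in PAMH replicate 4, while the other PAMH samples had 1.51 to 1.96 FPKM. Bgn, the biglycan gene, was 23.0 FPKM in control replicate 2, against 17.3 to 18.4 FPKM in the other controls. Each was also the highest of its group for Col6a1 and Sparc, and PAMH replicate 4 had the fewest genes above 0 and the highest hemoglobin sum. The part of these features in the values was not tested.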

How the results depend on the processing

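Timp4 kept its direction in all 23 other settings, with log2 fold changes of -0.79 to -0.57, and its call in all but the fit without a filter. Of the other 33 tested members 5 passed in some setting and 28 in none of those run. The number of members called higher was 0 with all samples and 0 to 2 with 1 sample left out. It was 2 with sample weights (Thbs1, Timp1) and 1 with the filter at 5 FPKM, rescaling to the same sum, removal of the length and GC trend, protein-coding genes only, or without PAMH replicates 4 and 5. The number called lower was 1, was 1 to 2 with 1 sample left out, and was 0 without a filter and 2 with the filter at 5 FPKM, median ratio scaling, quantile normalization or sample weights, where Col3a1 joined Timp4. Over all genes 584 were called (467 higher, 117 lower) and 274 to 1126 with 1 sample left out, the highest without PAMH replicate 3. The count was 264 without a filter, 1214 with sample weights, 357 without PAMH replicates 4 and 5, and 883 with the length and GC trend removed. Median ratio scaling gave 215 higher and 190 lower, and quantile normalization 234 and 246, with the median of all genes at 0.01 and 0.00 in place of 0.07. The members' median was -0.01 in the reported fit and -0.12 to 0.06 over the other settings, and in each of them it moved by less than the SD of the samples' own medians (0.121). That SD describes single samples within a group and is wider than the error of a difference between group means.

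With the replicate number as a block 239 genes were called, 1 of them a member (Timp4, adjusted p = 0.0453 by limma), and the block changed no other call among the members. Same-numbered samples did not deviate together (correlations of -0.19 to 0.16, 1 of 5 numbers the best match of itself). The check gave no sign of pairing by number, but 5 correlations cannot decide whether samples share a dam or litter. Among the ratios, with 1 sample left out the log2 differences ranged from 0.21 to 0.35 for Col1a1 to Col3a1, -0.15 to -0.0851 for Col1a1 to Col1a2 and, for Postn to Col1a1, which had -0.12 with all samples, from -0.32 (without PAMH replicate 3) to 0.10 (without PAMH replicate 4). That last ratio was also reversed without PAMH replicates 4 and 5 (0.19) and with quantile normalization (0.0245), with no call in any. Col1a1 to Col1a2 passed with quantile normalization (-0.15, exact permutation). The cause of these shifts was not tested. Unknown depth limits what can be said of genes near or below 1 FPKM, among them Timp1, Thbs1 and Lox.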
